A study of Mus musculus with 6 samples.

Results

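The 9 genes described here, *Nphs1*, *Synpo*, *Podxl*, *Cd2ap*, *Kirrel*, *Magi2*, *Ptpro*, *Wt1* and *Actn4*, encode proteins of the podocyte slit diaphragm and foot process, together with a transcription factor that governs podocyte identity. They were taken by symbol from the 26903 genes of the series, and all 9 were found in all 6 libraries. The libraries were single-cell RNA sequencing of renal cortex from 9-month-old C57BL/6J mice labelled male, 3 wild type (WT) and 3 *Prdm16* global knockout (KO), with 1 mouse per library. The KO allele lacks exon 2 of *Prdm16* in every cell of the body, with no restriction to kidney or podocytes, and no other allele or treatment was given to either group. Fresh cortex was digested with enzymes and captured in BD Rhapsody microwells, where beads tag each transcript with a cell barcode and a unique molecular identifier (UMI), a tag that counts each molecule once. Levels of the 9 genes were compared over kidney cell classes and between WT and KO.

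Podocytes are the epithelial cells on the outer face of the glomerular capillary. Their interlocking foot processes are bridged by the slit diaphragm, a cell junction that filters plasma. Nephrin (*Nphs1*) and its partner Neph1 (*Kirrel*) span the slit, CD2AP (*Cd2ap*) and MAGI2 (*Magi2*) anchor them inside the cell, synaptopodin (*Synpo*) and α-actinin-4 (*Actn4*) organise the actin bundles, podocalyxin (*Podxl*) and the receptor phosphatase GLEPP1 (*Ptpro*) cover the apical membrane, and WT1 (*Wt1*) drives the programme. Loss of several of these proteins causes proteinuria.

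Over all barcodes, the libraries held between 96382945 and 121198131 UMIs. Of the barcodes, 28488 were kept as cells (3538 to 6276 per library), and 10 retained barcodes occurred in 2 or more libraries. *Prdm16* stood at 26.7 to 32.4 CPM (counts scaled to 1000000 UMIs) over all WT cells and at 21.0 to 24.9 CPM over all KO cells, but in podocyte-like cells it rested on 1 to 9 UMIs per library, and counts of transcript 3′ ends do not show whether exon 2 is present. Although every mouse was labelled male, WT replicate 2 and KO replicate 1 carried *Xist*, the transcript of the inactive X chromosome, at 297 and 306 CPM, against at most 0.216 CPM in the other 4 libraries. Results that rest on these 2 libraries are therefore given with and without them.

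Podocyte-like cells numbered 967, 1004 and 763 in WT replicates 1 to 3 and 1607, 964 and 562 in KO replicates 1 to 3, which was 5867 of the 28488 cells or 20.6%. They came from 3 of 28 clusters and were named from 12 markers that hold none of the 9 genes. All 12 markers had UMIs in them, although *Pla2r1* was near 0 at 0.0840 CPM. Defining markers of lymphocytes were at or near 0: the 7 T and NK markers together reached at most 1.97 CPM and the 5 B cell markers at most 1.68 CPM in any library. Other lists were far from 0. The arterial endothelial list was at 3331 to 4748 CPM (99.9% *Sema3g*) and the glomerular endothelial list at 1908 to 2487 CPM (98.8% *Lpl*). The fibroblast list was at 633 to 1092 CPM (99.8% *Col1a2*) and the DCT list at 297 to 376 CPM (83.8% *Wnk1*). Of a podocyte-like cell's transcripts, the 9 genes together made up 1.27% to 1.66% per library, and the median cell held UMIs of 8 or 9 of the 9 genes in every library. At most 0.534% of podocyte-like cells in a library held none of them. Its share of cells was 18.6% ± 1.51 for WT against 21.8% ± 5.21 for KO (SD, n = 3), which did not pass the test (log2 fold change 0.23, SE 0.27, adjusted p 0.541 over 19 classes in edgeR on cell counts, two-sided exact permutation p 0.4, the smallest possible p being 0.1).

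Each of the 9 genes had its highest mean level in podocyte-like cells among the 14 classes that reached 20 cells in each library. The classes and the values are a description, with no test. For 8 of the 9 genes the podocyte-like libraries all lay above every library of the next class, the exception being *Actn4*. Since UMIs come from transcript 3′ ends and no length enters, the levels below are set side by side within a gene and not between genes.

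The slit diaphragm genes differed most in how much of their level lay outside podocyte-like cells. *Nphs1* averaged 2446 ± 273 CPM in podocyte-like cells (SD over 6 libraries). Over 6 tubular classes it averaged 2.10 to 4.74 CPM, or 0.0858% to 0.194% of the podocyte-like level. Proximal tubule-like cells are not among these 6, since KO replicate 1 held only 9 of them. *Kirrel* averaged 341 ± 53.5 CPM in podocyte-like cells, and its next class was mesangial and mural-like, which holds mesangial cells, pericytes and smooth muscle, at 117 ± 22.2 CPM, a range that met that of parietal epithelial-like cells. *Magi2* averaged 340 ± 34.7 CPM in podocyte-like cells and 47.1 CPM in parietal epithelial-like cells (21.1 to 97.1 over libraries), and reached 2.79% of its podocyte-like level in macula densa-like cells. *Cd2ap* was the broad member of this group, at 774 ± 76.0 CPM in podocyte-like cells and still at 228 ± 17.4 CPM in intercalated-like (IC) cells. In each of the 6 tubular classes it kept 11.3% to 29.4% of its podocyte-like level. In *Cd2ap*, the ranges of parietal epithelial-like, IC-like and principal cell-like (PC) libraries overlapped, so their order was not resolved.

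The 2 actin genes differed in breadth. *Actn4* stood at 1265 ± 143 CPM in podocyte-like cells and at 1165 ± 285 CPM in mesangial and mural-like cells, with overlapping ranges (1034 to 1416 against 816 to 1483 CPM), and was present in every class, down to 96.5 ± 14.3 CPM in macrophage-like cells. *Synpo* averaged 1230 ± 311 CPM in podocyte-like cells, followed by parietal epithelial-like (93.1 ± 58.9), mesangial and mural-like (86.2 ± 35.6) and arterial endothelial-like cells (75.1 ± 15.6 CPM), whose ranges overlapped. In the 6 tubular classes, which leave out proximal tubule-like cells, it lay between 1.39 and 2.40 CPM.

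Each apical membrane gene was also found in a class outside the epithelium. *Podxl*, which endothelial cells are known to make, averaged 5215 ± 689 CPM in podocyte-like cells and 1045 ± 196, 855 ± 206 and 728 ± 140 CPM in arterial, glomerular and peritubular endothelial-like cells, 3 neighbours whose ranges overlapped. *Ptpro* averaged 1305 ± 133 CPM in podocyte-like cells, 213 ± 97.9 CPM in parietal epithelial-like cells and 95.8 ± 18.1 CPM in macrophage-like cells. The ranges of the last 2 overlapped, and macrophage-like cells (78.7 to 123 CPM) lay above the class after them in all 6 libraries. The transcription factor *Wt1* averaged 2115 ± 144 CPM in podocyte-like cells, 398 ± 228 CPM in parietal epithelial-like cells and 92.5 ± 35.2 CPM in mesangial and mural-like cells, and these 3 steps did not overlap.

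**Figure D1:**
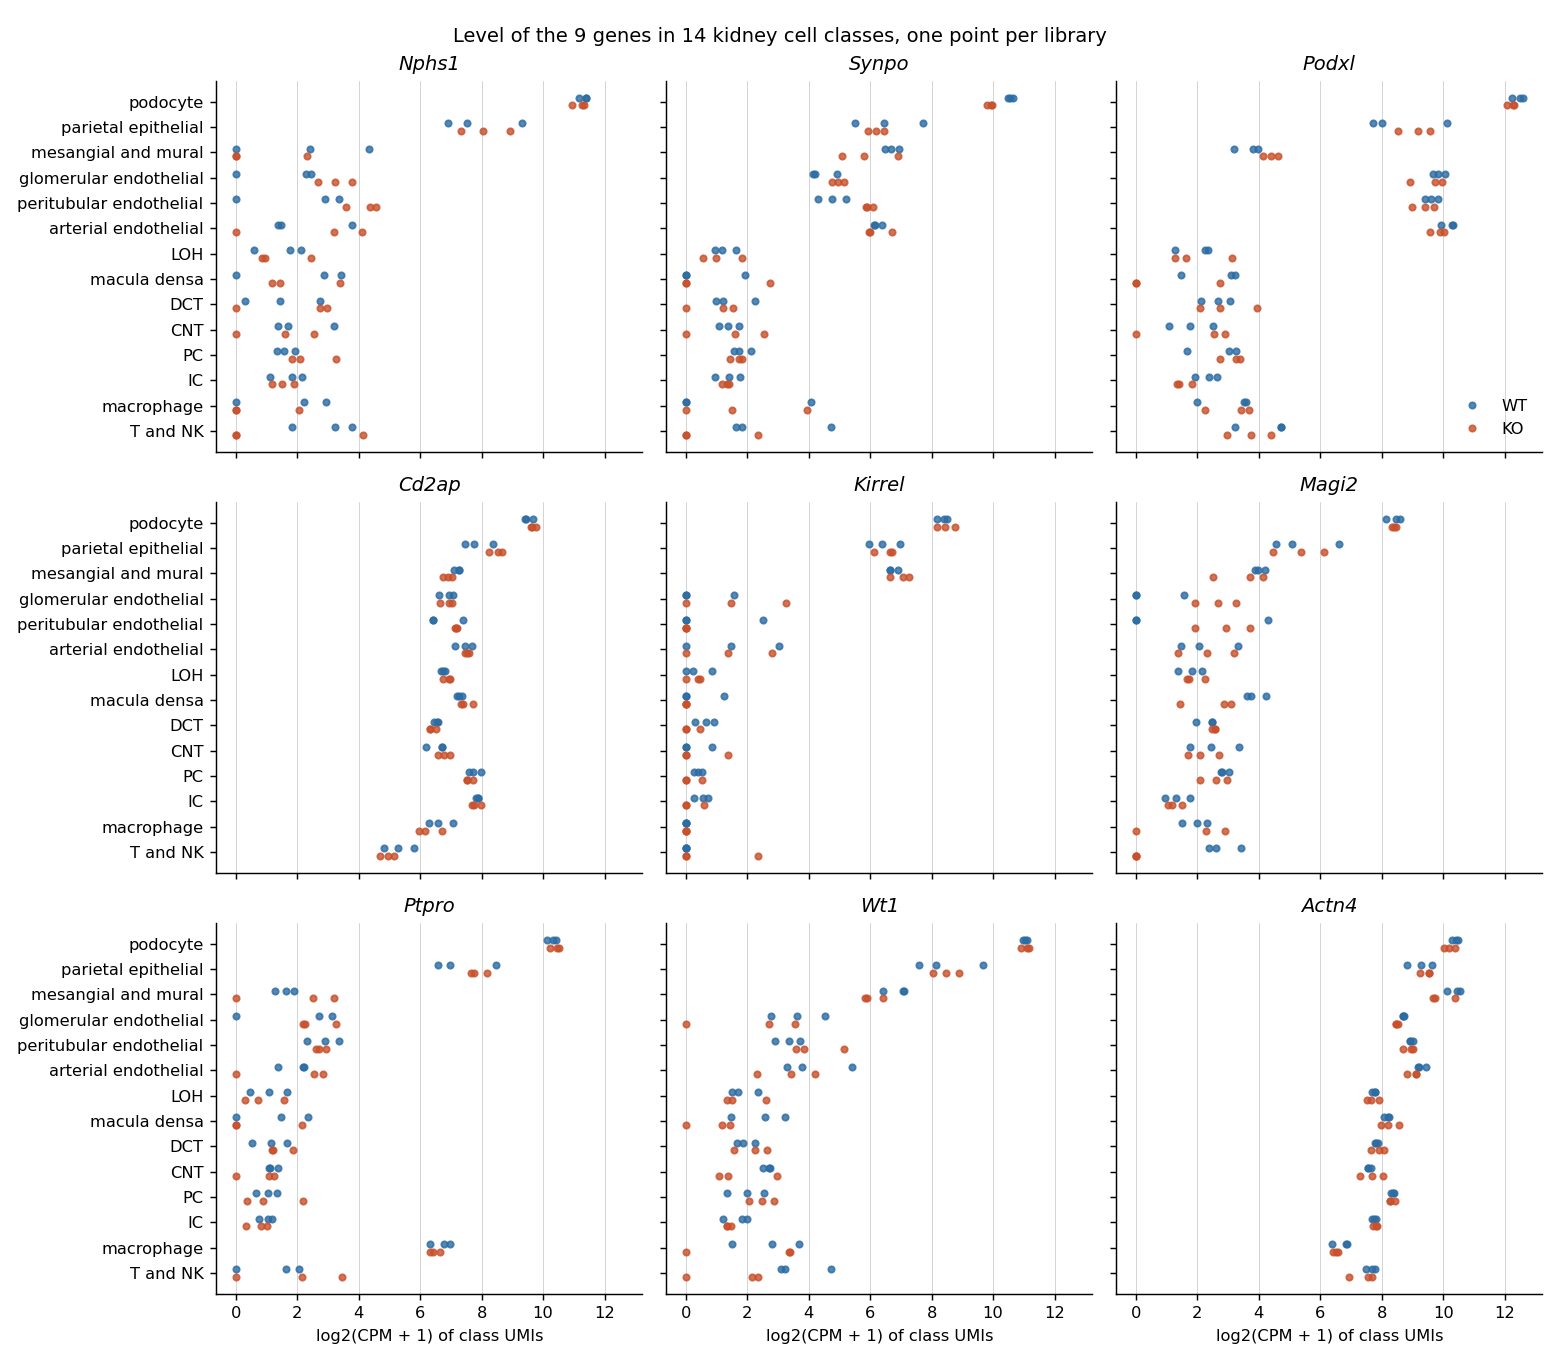
Level of the 9 genes in 14 cell classes, on the x axis as log2(CPM + 1) of the UMIs of a class, with 1 point per library (blue WT, red KO) and the classes on the y axis. Podocyte-like cells lie farthest right, meeting mesangial and mural-like cells for *Actn4*, *Podxl* has a second group of points in 3 endothelial-like classes, *Ptpro* one in macrophage-like cells, and *Cd2ap* and *Actn4* are present in all classes.

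Parietal epithelial-like cells, 269 cells with 29 to 65 per library, held UMIs of all 9 genes. Parietal cells line Bowman's capsule and border on podocytes. This cluster was led by *Fst*, *Gprc5a* and *Aqp1*, a water channel also known from the thin descending limb, and descending limb markers scored second in it. Its levels were spread widely between libraries: *Nphs1* was at 118, 641 and 182 CPM in WT and at 485, 162 and 265 CPM in KO. Set against podocyte-like cells, its level was 12.6% for *Nphs1*, 7.57% for *Synpo*, 13.8% for *Magi2*, 16.4% for *Ptpro* and 18.8% for *Wt1*, and it was 26.4% for *Kirrel*, 38.7% for *Cd2ap* and 52.1% for *Actn4*. The 12 podocyte markers summed to 10.2% of their podocyte-like level there, and the 11 of them above 1 CPM in podocyte-like cells ranged from 2.56% to 19.4%. After each cell was thinned to 1000 UMIs, *Nphs1* was found in 18.7% ± 10.2 of WT parietal epithelial-like cells and in 26.7% ± 12.4 of those of KO, while *Wt1* was found in 21.4% ± 13.3 and 33.6% ± 6.36 (SD, n = 3). The part of podocyte transcripts or doublets in these values was not tested.

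Promoter sequences are shown for 3 genes that differed in breadth, *Magi2* with at most 2.79% of its podocyte-like level in a tubular class, *Ptpro* with macrophage-like cells besides, and *Actn4* in every class. Of the 9 genes, 6 were in the RefSeq promoter table for GRCm38.p6 (*Nphs1*, *Cd2ap*, *Kirrel*, *Magi2*, *Ptpro* and *Actn4*). Each sequence below is the 240 bases that end 11 bases before the annotated transcription start, read 5′ to 3′ on the strand of the gene, and holds no annotated exon. Capitals mark GC boxes (GGGCGG on either strand).
Magi2, chr5:19226796-19227035, plus strand: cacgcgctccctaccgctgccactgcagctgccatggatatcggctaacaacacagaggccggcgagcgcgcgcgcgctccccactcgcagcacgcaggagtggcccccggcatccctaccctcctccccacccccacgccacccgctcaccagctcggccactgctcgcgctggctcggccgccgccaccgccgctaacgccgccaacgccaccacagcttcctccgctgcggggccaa
Ptpro, chr6:137252049-137252288, plus strand: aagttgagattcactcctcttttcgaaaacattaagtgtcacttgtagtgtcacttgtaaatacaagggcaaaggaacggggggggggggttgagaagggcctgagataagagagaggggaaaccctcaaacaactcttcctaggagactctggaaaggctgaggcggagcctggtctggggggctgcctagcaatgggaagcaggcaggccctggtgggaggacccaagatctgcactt
Actn4, chr7:28962343-28962582, minus strand: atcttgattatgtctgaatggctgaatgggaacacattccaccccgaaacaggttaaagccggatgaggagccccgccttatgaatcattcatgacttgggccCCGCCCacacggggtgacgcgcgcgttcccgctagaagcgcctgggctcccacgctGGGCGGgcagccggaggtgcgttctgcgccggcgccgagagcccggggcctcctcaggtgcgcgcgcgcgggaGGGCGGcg

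The *Actn4* window held 27 CpG dinucleotides and 3 GC boxes, and the *Magi2* window 29 CpG and no GC box. A second *Magi2* window in the table, at a later start, held 3 CpG and 1 GC box, and the *Nphs1* window held 5 CpG and no GC box. The *Ptpro* window held 3 CpG and no GC box. Over 32851 promoter windows of the same length the median was 5 CpG (quartiles 2 and 15), and 31.3% held a GC box. GCGTGGG, the core letters that WT1 is known to bind, was found once in the *Actn4* and once in the *Magi2* window on either strand, against 4.13% of all windows, and was not among the letters of the *Ptpro* window. These matches describe the letters alone.

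Loss of *Prdm16* was then examined in podocyte-like cells, where UMIs were summed per library and the 3 KO sums set against the 3 of WT in edgeR's quasi-likelihood test (p-values adjusted by Benjamini-Hochberg over all 10344 genes tested, threshold 0.05). Of the 9 genes, 1 passed, *Synpo*, which was lower in KO. Over all genes 203 passed, or 1.96%, of which 78 (0.754%) were lower and 125 (1.21%) higher. The count was 61 to 177 with 1 library left out. The median log2 fold change was −0.03 over the 9 genes and 0.00 over all genes tested, and 6 of the 9 were below 0 against 5125 of 10344 over all genes.

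*Synpo* (chromosome 18, 60593973 to 60660142, minus strand, GRCm38) was at 1494, 1599 and 1431 CPM in WT replicates 1 to 3 and at 971, 1003 and 885 CPM in KO replicates 1 to 3. Every KO value was under every WT value, by a gap larger than the spread within either group. The means were 1508 ± 84.9 and 953 ± 61.3 CPM (SD, n = 3), a log2 fold change of −0.68 (SE 0.10, adjusted p 0.00655 in edgeR), or a decrease of 37.6%. WT and KO libraries did not overlap for 23.5% of all genes tested. The level rested on 32561 UMIs. By p-value, *Synpo* had rank 41 among the 203 genes that passed.

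The change was seen in each of the 3 podocyte-like clusters when it was tested alone, an alternative chosen after seeing the data, with a log2 fold change of −0.60 (SE 0.09, adjusted p 0.00544), −0.73 (SE 0.12, adjusted p 0.00181) and −0.80 (SE 0.16, adjusted p 0.0204 in edgeR). In the third cluster, with the fewest UMIs per cell, *Synpo* was at 1351, 1821 and 1302 CPM in WT and at 818, 1039 and 806 CPM in KO. Separation within a cluster was not particular to *Synpo*. *Nphs1* was lower in KO without overlap in the first cluster (2160 to 2496 against 1747 to 2100 CPM) and in the second. *Actn4* was lower without overlap in the second, and *Cd2ap* higher in the first. The share of all genes without overlap within a cluster is not given here. With each of the 6 libraries left out in turn the adjusted p ran from 0.0165 to 0.0458, and with a term for the libraries with *Xist* it was 0.00853. Without WT replicate 2 and KO replicate 1, the 2 libraries with *Xist*, the log2 fold change was −0.62 and no longer passed (adjusted p 0.0821).

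Cells with a *Synpo* UMI were also fewer. After thinning to 1000 UMIs, which left out 39 to 154 podocyte-like cells per library, *Synpo* was found in 74.7%, 78.0% and 75.2% of WT cells and in 58.4%, 60.8% and 56.4% of KO cells, and the groups did not overlap. Unthinned, the shares were 94.4% ± 1.15 and 84.6% ± 2.16 (SD, n = 3). In loop of Henle-like (LOH) cells, which should lack *Synpo*, the thinned share was 0.591% ± 0.116 in WT and 0.217% ± 0.216 in KO. Of the other 8 genes, 7 overlapped in their thinned share, such as *Wt1* with 86.7% ± 0.921 and 86.8% ± 2.62, while *Nphs1* ran from 90.6% to 91.8% in WT and from 81.6% to 89.1% in KO without overlap. The share of all genes without overlap in this measure is not given here. In CPM it was 23.5%, and there *Nphs1* overlapped.

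Several other measures of podocyte-like cells moved with genotype. The median cell held 4384 to 5373 UMIs in WT and 2664 to 3486 in KO, and the median share of mitochondrial UMIs was 10.92% to 11.95% in WT and 13.6% to 13.9% in KO. The third cluster, with a median of 1489 to 1954 UMIs per cell, took 13.3% to 20.1% of podocyte-like cells in WT and 30.2% to 35.6% in KO. Summed over the 12 podocyte markers, the level was 15379 to 17572 CPM in WT and at 12537 to 14875 CPM in KO. Their part in the *Synpo* result was not tested.

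Summed marker lists of other cell types gave no single direction in podocyte-like cells. A sum led by 1 gene does not show that RNA of the other cell type was present. Of the marker lists of other cells, the loop of Henle list (6 of 6 genes detected) summed to 721 to 803 CPM in WT and at 553 to 655 CPM in KO, and *Egf* made up 63.8% of it. The list of peritubular endothelium (6 of 6) was at 790 to 886 CPM in WT and at 505 to 581 CPM in KO, and 99.6% of it was *Npr3*, with the other 5 genes together at 1.26 to 6.75 CPM. The descending limb list (4 of 6, *Slc14a2* and *Bst1* at 0) was at 688 to 795 CPM in WT and at 479 to 657 CPM in KO, 99.9% of it *Cryab*. The neutrophil list (5 of 5) was at 0 to 1.34 CPM in WT and at 5.88 to 25.6 CPM in KO, and the monocyte list (4 of 5, *Chil3* at 0) at 0.655 to 0.840 and 1.54 to 2.10 CPM. The other 14 of 19 lists overlapped between WT and KO. The part of these transcripts in the *Synpo* result was not tested.

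**Figure D2:**
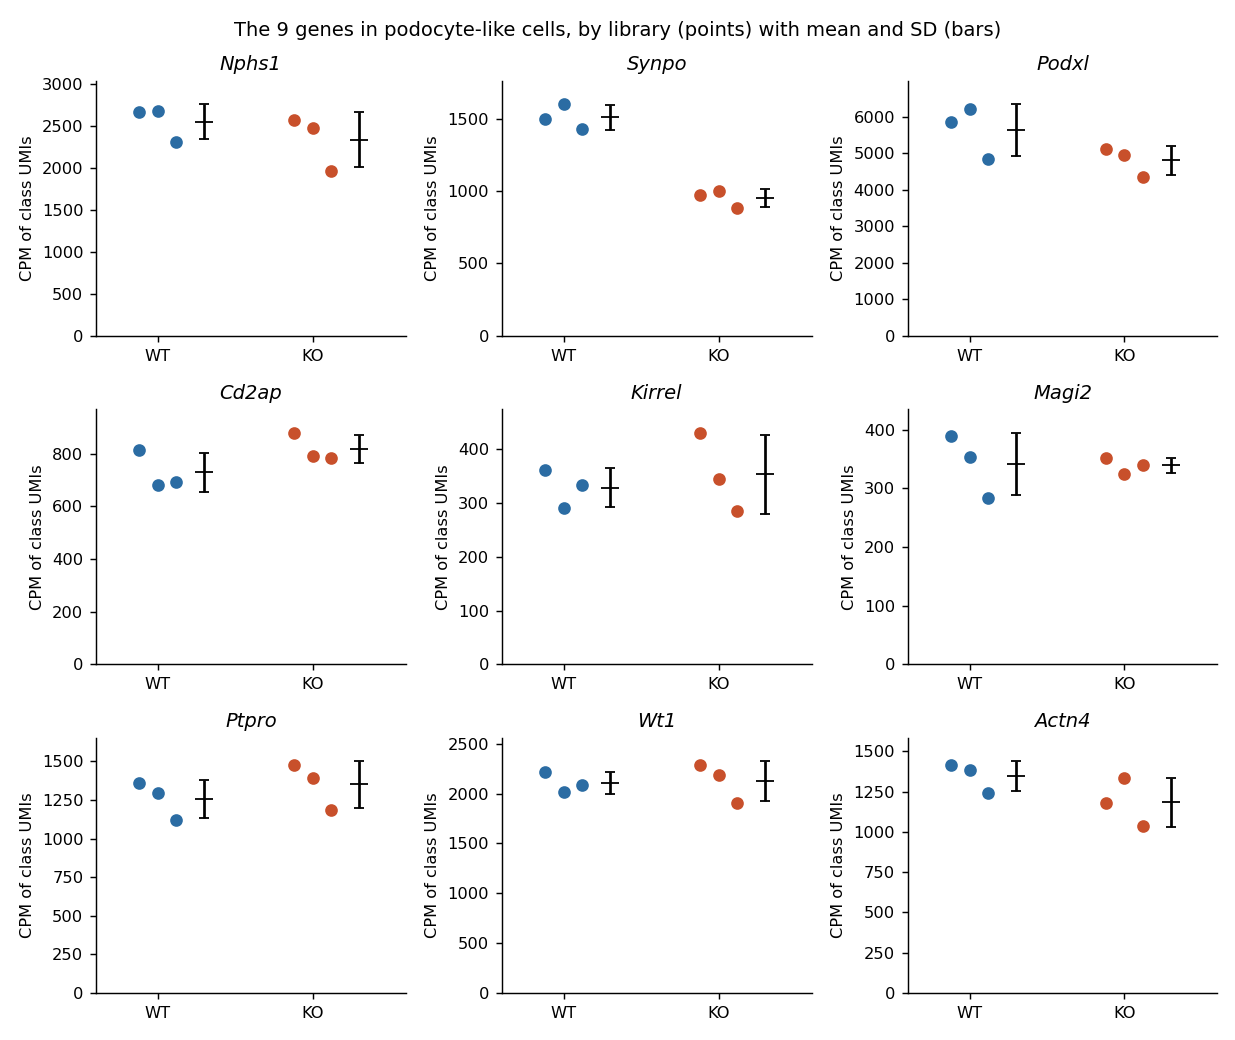
CPM of the 9 genes in podocyte-like cells on the y axis, which starts at 0, with 1 point per library (blue WT, red KO) and bars for the mean ± SD of 3 libraries. *Synpo* is the gene whose WT libraries (1431 to 1599 CPM) all lie above its KO libraries (885 to 1003 CPM), while both groups of the other 8 overlap.

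Among the slit diaphragm genes none of the 4 passed. *Nphs1* (chromosome 7, 30458315 to 30487223, plus strand) was at 2666, 2681 and 2312 CPM in WT and at 2574, 2479 and 1963 CPM in KO. The log2 fold change was −0.15 (SE 0.12, adjusted p 0.546 in edgeR). The lowest library of each group was replicate 3, and the groups overlapped over all podocyte-like cells. Within the second podocyte-like cluster they did not (3323 to 3394 CPM in WT, 2821 to 3224 CPM in KO), nor within the first, while in the third they overlapped. *Kirrel* (chromosome 3, 87078593 to 87174747, minus strand) was at 362, 291 and 334 CPM in WT and at 431, 345 and 285 CPM in KO. Its log2 fold change of 0.09 (SE 0.14) turned to −0.06 without KO replicate 1.

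The 2 intracellular anchors did not pass either. *Cd2ap* (chromosome 17, 42792951 to 42876665, minus strand) was at 815, 680 and 692 CPM in WT and at 880, 793 and 782 CPM in KO, overlapping through WT replicate 1, with a log2 fold change of 0.15 (SE 0.11, adjusted p 0.483 in edgeR). *Magi2* (chromosome 5, 19227036 to 20704792, plus strand) was at 389, 353 and 284 CPM in WT and at 351, 325 and 341 CPM in KO, which all lay within the range of WT, with a log2 fold change of −0.03 (SE 0.12).

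*Actn4* (chromosome 7, 28893248 to 28962340, minus strand), the other actin gene, was at 1416, 1382 and 1240 CPM in WT and at 1181, 1334 and 1034 CPM in KO. Its log2 fold change was −0.20 (SE 0.11, adjusted p 0.361 in edgeR), lower in KO in each alternative of processing (−0.30 to −0.13), and passed the threshold in none. Mutations of *Actn4*, as background, cause an inherited glomerular disease.

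On the apical membrane, *Podxl* (chromosome 6, 31519488 to 31563981, minus strand) was at 5844, 6208 and 4839 CPM in WT and at 5108, 4957 and 4335 CPM in KO, giving −0.25 as log2 fold change (SE 0.12, adjusted p 0.285 in edgeR). WT replicate 3 lay below KO replicates 1 and 2, so the groups overlapped. *Ptpro* (chromosome 6, 137252319 to 137463233, plus strand) was at 1360, 1293 and 1123 CPM in WT and at 1475, 1395 and 1183 CPM in KO, giving 0.08 as log2 fold change (SE 0.11). *Wt1* (chromosome 2, 105126529 to 105173616, plus strand) was at 2221, 2011 and 2082 CPM in WT and at 2291, 2183 and 1904 CPM in KO, giving −0.01 as log2 fold change (SE 0.10), the smallest of the 9. Annotated genes that overlap the 9 genes held few UMIs, at most 169 in podocyte-like cells (*Capn12*, on the strand opposite to *Actn4*).

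**Figure D3:**
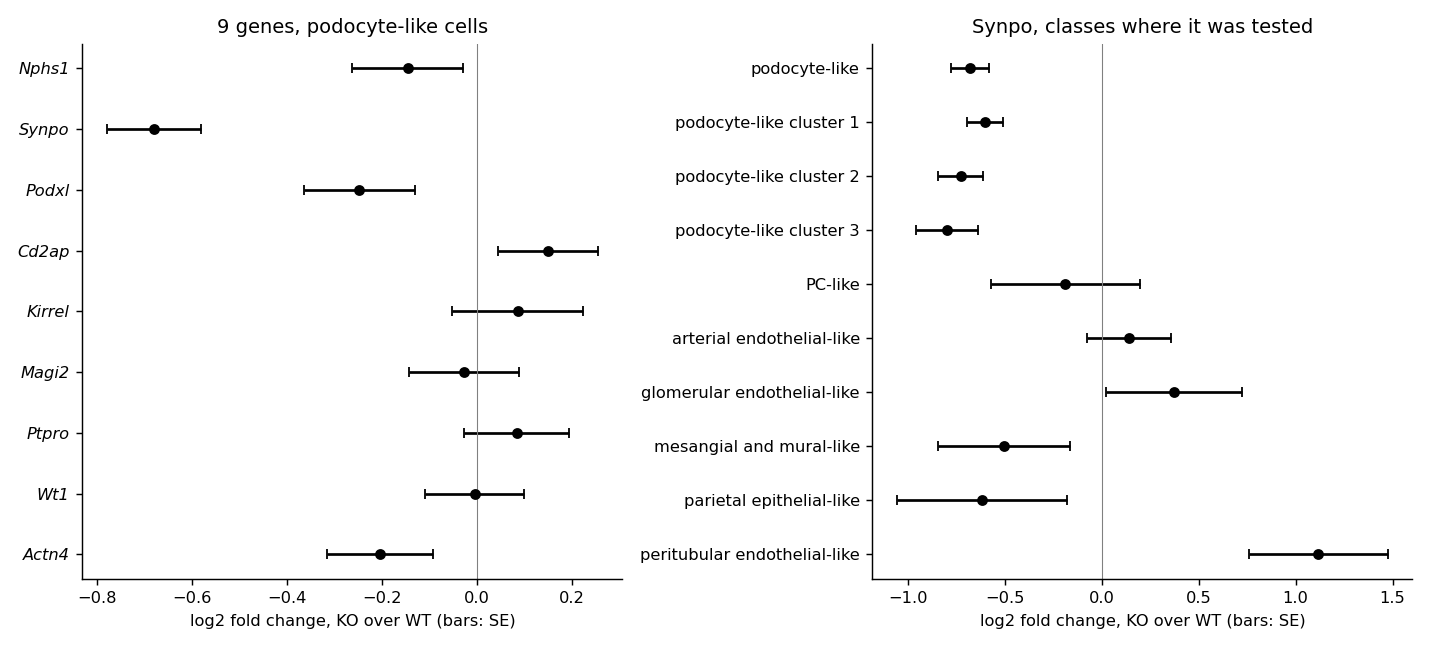
Log2 fold change of KO over WT on the x axis, with bars for the SE, for the 9 genes in podocyte-like cells (left) and for *Synpo* in podocyte-like cells, their 3 clusters and the 6 other classes where it was tested (right). *Synpo* at −0.68 stands to the left of the other 8 genes (−0.25 to 0.15), and in peritubular endothelial-like cells it lies at 1.12 with an SE of 0.36.

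Other genes of the foot process were read from lists chosen by function. Of the slit diaphragm and junction proteins other than the 9, 14 of 18 were tested, 1 was higher and 0 lower, beside 1.21% and 0.754% of all genes, and 5 had an unadjusted p below 0.05, beside 18.6% of all genes. The median log2 fold change was 0.02, against 0.00 over all genes. The 1 was *Kirrel2*, which encodes Neph3, a paralogue of Neph1, and lies next to *Nphs1* (chromosome 7, 30447534 to 30457690, minus strand). *Kirrel2* was at 10.3, 7.73 and 13.2 CPM in WT and at 30.7, 20.5 and 24.8 CPM in KO, with no overlap and a log2 fold change of 1.30 (SE 0.22, adjusted p 0.0150 in edgeR). The level rested on 143 UMIs in WT and 289 in KO, and the call held in 15 of 19 alternatives. It was lost without WT replicate 1 (adjusted p 0.0551), WT replicate 2 (0.0733) or KO replicate 1 (0.0615), and without the libraries with *Xist* (0.128). The most abundant genes of this list, the kinase *Fyn* (log2 fold change −0.04) and the tight junction scaffold *Tjp1* (0.18), did not pass.

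Of 18 tested genes for the actin cytoskeleton and adhesion of foot processes (20 in the list), 0 passed in edgeR, while 4 had an unadjusted p below 0.05, beside 18.6% of all genes. The median log2 fold change was −0.06. *Itgb1*, the β1 integrin that holds podocytes to the basement membrane, was at 1456 ± 141 CPM in WT and at 1493 ± 49.2 in KO, and dystroglycan (*Dag1*) at 1583 ± 160 and 1536 ± 263 CPM (SD, n = 3). *Synpo* was thus the gene that passed among the actin-associated genes examined here.

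Among 12 podocyte transcription factors, all tested, 0 were higher and 1 was lower, beside 1.21% and 0.754% of all genes. The 1 was *Foxc2*, a forkhead factor of podocyte development. It was at 499, 454 and 465 CPM in WT and at 337, 384 and 323 CPM in KO. The log2 fold change was −0.46 (SE 0.10, adjusted p 0.0482 in edgeR) and lost the threshold in 13 of 19 alternatives, among them each of the 6 libraries left out, with adjusted p from 0.00462 to 0.238. *Tcf21* (log2 fold change 0.11), a factor of podocyte development, did not pass. Of the podocyte matrix and secreted factors, 12 of 13 were tested, and 1 was higher and 0 lower, beside 1.21% and 0.754% of all genes. The higher gene was *Bmp7*, a growth factor that protects renal epithelium. It was at 250, 232 and 208 CPM in WT and at 348, 364 and 331 CPM in KO (0.58 on the log2 scale, SE 0.10, adjusted p 0.0153 in edgeR). The call held in 15 of 19 alternatives, and was lost without WT replicate 2 (adjusted p 0.0814), WT replicate 3 (0.0774) or KO replicate 2 (0.0653), and without the libraries with *Xist* (0.0782). *Vegfa* and *Sparc*, the 2 most abundant, had log2 fold changes of 0.26 and 0.14 and did not pass.

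Of 14 tested podocyte identity genes outside these groups (15 in the list), 0 were higher and 2 lower, beside 1.21% and 0.754% of all genes, and the median log2 fold change was −0.23, against 0.00 over all genes. *Rab3b*, a GTPase of vesicle traffic, was at 1410, 1395 and 1153 CPM in WT and at 738, 794 and 776 CPM in KO. The log2 fold change was −0.79 (SE 0.11, adjusted p 0.00494 in edgeR) and passed in 18 of 19 alternatives and not without the libraries with *Xist* (adjusted p 0.0599). *Rhpn1* had a log2 fold change of −0.49 (SE 0.11, adjusted p 0.0415) and passed in 9 of 19, being lost with any 1 library left out other than KO replicate 3. *Cdkn1c*, a cell cycle inhibitor and the most abundant of the list, was at 6002 ± 685 and 4460 ± 489 CPM (log2 fold change −0.44, adjusted p 0.0924), and *Enpep*, an aminopeptidase, had a log2 fold change of −0.04. Of the 18 dissociation stress genes, 0 passed in edgeR and 1 had an unadjusted p below 0.05, beside 18.6% of all genes. Their sum ran from 20004 to 36371 CPM in WT and from 21948 to 39857 CPM in KO, and *Fos* and *Hspa1b*, the most abundant, had log2 fold changes of 0.17 and 0.25.

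Outside podocyte-like cells the 9 genes gave 58 tests over 13 classes that passed the filter on low counts. Of these, 0 passed in edgeR and 0 in DESeq2, while 4 had an unadjusted p below 0.05 in edgeR, and the lowest adjusted p was 0.284. The share of all genes with an unadjusted p below 0.05 in these classes is not given here, so the 4 are not read as a result. With classes taken from marker scores instead, 4 members passed in DCT-like cells, all higher in KO (log2 fold changes 1.75 to 2.78, adjusted p 0.000869 to 0.0174 in edgeR). The share of all genes that passed in that setting is not given here, and the shares below are of the main clustering. In DCT-like cells of the main clustering these 4 were at 0 to 14.4 CPM per library, against 38.3 to 354 CPM in barcodes with at most 100 UMIs. Genes at or near 0 in a class could not enter, and only *Actn4* and *Cd2ap* were tested in all 13. As background, the share of all genes that passed was 4.46% in LOH-like, 2.76% in PC-like, 1.28% in connecting tubule-like (CNT), 1.12% in macula densa-like, 0.977% in distal convoluted tubule-like (DCT) and 0.534% in IC-like cells. It was 0.562% in peritubular, 0.543% in arterial and 0.167% in glomerular endothelial-like cells, 0.42% in macrophage-like, 0.0537% in mesangial and mural-like, 0.0256% in T and NK-like and 0% in parietal epithelial-like cells.

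The 4 values with an unadjusted p below 0.05 were in 4 classes. *Synpo* in peritubular endothelial-like cells was at 36.3, 26.0 and 18.6 CPM in WT and at 67.3, 57.9 and 58.6 CPM in KO, higher in all 3 KO libraries, with a log2 fold change of 1.12 (SE 0.36, adjusted p 0.284 in edgeR) on 103 UMIs. The share of all genes without overlap in these classes is not given here. *Wt1* in mesangial and mural-like cells was at 137, 133 and 85.1 CPM in WT and at 58.7, 56.4 and 84.8 CPM in KO, giving −0.84 as log2 fold change (SE 0.26, adjusted p 0.320). Its 2 groups all but met at WT and KO replicates 3. *Podxl* in IC-like cells (1.56 to 5.19 CPM) and *Nphs1* in PC-like cells (1.57 to 8.66 CPM) had log2 fold changes of −1.07 and 1.1, at levels below those of barcodes with at most 100 UMIs.

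Whether the effect of genotype itself differed between classes was tested with an interaction term, the mouse being a block in edgeR. For *Synpo*, the log2 fold change of podocyte-like cells minus that of endothelial-like cells of all 3 kinds was −0.87 (SE 0.18, adjusted p 0.0190), and 155 of 7925 genes passed (1.96%). The 3 kinds were mixed differently in WT and KO, since peritubular endothelial-like cells were 2.31% to 3.94% of WT and 6.72% to 9.36% of KO cells and the level of *Synpo* differed between kinds (75.1, 44.1 and 25.7 CPM in arterial, peritubular and glomerular), and the part of this in the difference was not tested. The difference no longer passed without WT replicate 2 (adjusted p 0.0951), WT replicate 3 (0.0837) or KO replicate 1 (0.0998), nor without both libraries with *Xist* (−0.72, adjusted p 0.350). Against glomerular endothelial-like cells alone it was −1.03 (SE 0.33, adjusted p 0.188). Against mesangial and mural-like cells, the other contractile cells of the glomerulus, it was −0.13 (SE 0.31, adjusted p 0.952), where the log2 fold change of *Synpo* was −0.50 (SE 0.34). For *Wt1* the same difference from mesangial and mural-like cells was 0.87 (SE 0.26, adjusted p 0.160). None of the other 5 members tested against endothelial-like cells passed, and none of the 6 tested against LOH-like cells, where *Synpo* was too low to enter and 2.24% of genes passed. Within endothelial-like cells of all 3 kinds, 0 of 6 members passed, beside 0.194% of all genes.

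Over all retained cells without classes, *Synpo* had the same size of change (log2 fold change −0.68, SE 0.22) but an adjusted p of 0.203 in edgeR, where 0 of the 9 genes passed and 1.07% of all genes did. With DESeq2 it passed there (adjusted p 0.0386). In the same sum *Wt1* was at 312 ± 48.7 CPM in WT and 308 ± 99.9 in KO, and *Ptpro* at 188 ± 44.4 and 196 ± 66.8 CPM (SD, n = 3), both with overlapping groups.

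As a measure free of cell naming, *Synpo* was set against *Nphs1* as UMIs of *Synpo* per 100 UMIs of *Nphs1*, a choice made after seeing the data. In podocyte-like cells the ratio was 56.0, 59.6 and 61.9 in WT and 37.7, 40.5 and 45.1 in KO. Over all barcodes of a library, with no filter at all, it was 57.8, 60.2 and 63.2 in WT and 42.7, 43.2 and 47.0 in KO, without overlap (two-sided exact permutation p 0.1, the smallest possible). This sum is not independent of the podocyte-like cells. They held 63882 of its 79605 *Nphs1* UMIs and 32561 of its 42295 *Synpo* UMIs, so most of the 2 ratios is the same UMIs. In barcodes above the limit of 50% mitochondrial UMIs the means were 59.9 ± 7.79 and 48.7 ± 3.77 (SD, n = 3). In barcodes with at most 100 UMIs, which hold free RNA, the ratio was 60.02, 63.6 and 69.7 in WT and 59.7, 51.5 and 60.7 in KO, and there the groups overlapped (exact permutation p 0.2). Against the same reference in podocyte-like cells, *Ptpro* (49.3 ± 1.51 and 57.9 ± 2.06) and *Cd2ap* (28.6 ± 2.84 and 35.3 ± 4.06) were higher in all 3 KO libraries, while *Podxl*, *Kirrel*, *Magi2*, *Wt1* and *Actn4* overlapped. In CPM *Ptpro* and *Cd2ap* overlapped too, and the reference *Nphs1* itself had a log2 fold change of −0.15. The share of all genes without overlap in this ratio is not given here. Among the UMIs of the 9 genes, *Synpo* made up 9.02% to 9.98% in WT and 6.36% to 6.96% in KO.

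**Figure D4:**
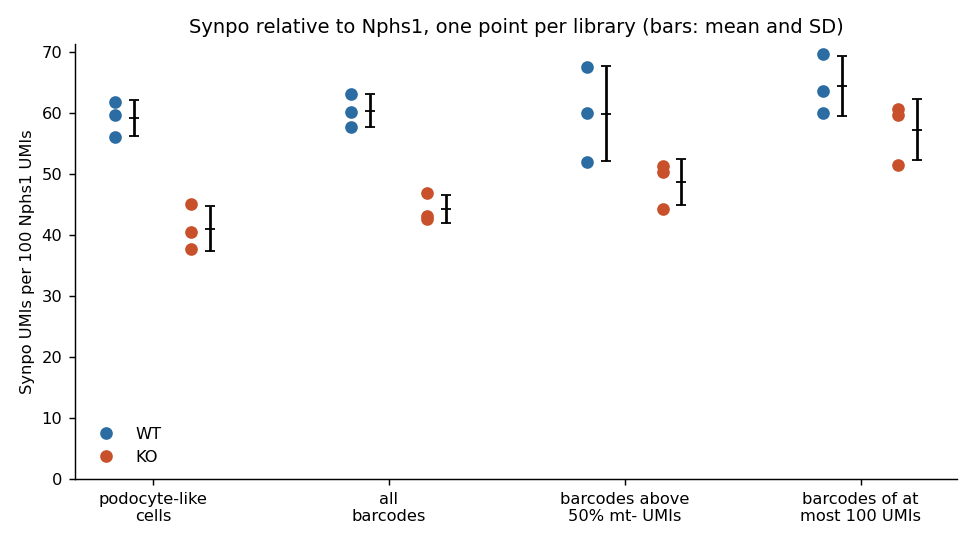
*Synpo* UMIs per 100 *Nphs1* UMIs on the y axis, which starts at 0, in podocyte-like cells, all barcodes, barcodes above 50% mitochondrial UMIs and barcodes of at most 100 UMIs, with 1 point per library (blue WT, red KO) and bars for the mean ± SD of 3 libraries. WT and KO are apart in the first 3 sets and overlap in the barcodes of at most 100 UMIs (WT 60.02 to 69.7, KO 51.5 to 60.7).

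To place each of the 9 genes among all others, the log2(CPM + 1) of its summed UMIs in each of the 18 named classes was correlated with that of 14181 other genes with at least 100 UMIs. These correlations are over 18 classes that share libraries, and are a description. The gene most like *Nphs1* was *Shisa3* (Pearson r 0.977). *Synpo* was most like *Foxc2* (0.973) and *St6galnac6* (0.962), *Podxl* like *Sema3g* (0.981) and *Coro2b* (0.955), and *Wt1* like *Col1a2* (0.974) and *Tcf21* (0.958). *Kirrel* was most like *Mmp23* (0.968) and *Mamdc2* (0.968), *Magi2* like *4921504A21Rik* (0.962) and *C1qtnf7* (0.911), and *Ptpro* like *Creg2* (0.929) and *Abca9* (0.883). The broad members were most like *Lgalsl* (0.972) and *Mrfap1* (0.946) for *Actn4*, and *Cdc16* (0.931) and *Tmem214* (0.925) for *Cd2ap*. Among the 9 genes themselves r ran from 0.376 (*Ptpro* and *Actn4*) to 0.921 (*Nphs1* with *Magi2* or *Wt1*).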

How the data were processed

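The authors deposited UMI counts per gene and barcode, neither normalised nor filtered for cells, made with the BD Rhapsody pipeline on mm10 and a GENCODE annotation, and their processing notes name Scanpy 1.8. Barcodes with 500 to 60000 UMIs, 200 to 8000 genes and at most 50% mitochondrial UMIs were kept. Scrublet marked under 0.5% of cells in every library, so the 6% with the highest scores were removed. Cells were clustered in scanpy 1.11.5 (2000 variable genes, 30 components, 15 neighbours, Leiden resolution 1.0) with the 9 genes left out of variable genes and markers. A name ending in -like means only that listed markers led a cluster, and 1 cluster of 388 cells stayed unnamed. UMI counts were summed per library and class, and classes that reached 20 cells in each library were tested with edgeR 4.0.16 (TMM, filterByExpr with a minimum count of 10, two-sided; R 4.3.3), checked on simulated counts. DESeq2 1.42.0, other filters, limits and clusterings, and each library left out were tried as alternatives. Members and lists were chosen with earlier results of these data known. Named genes were the 9 members, the listed genes that passed or were the 2 most abundant of a list, and the 2 genes most like each member, with any other named where a result turned on it. Some genes that this rule names are not reported here. Coordinates are from GENCODE vM21 on GRCm38, and the strand setting of the counting is not given in the sources used here. Between the libraries, UMIs in retained cells ran from 23107708 to 35366031 and in podocyte-like cells from 2380211 to 5954317, which sets the precision of a level. PCR copies are removed by the UMI. The SDs given are over the 3 libraries of a group or, for levels over classes, over all 6 libraries with WT and KO together. The SEs are from the edgeR fits. Samples were grouped by their titles.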

Additional observations from a re-analysis of the deposited data

Results flagged for a closer look

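For *Synpo*, the effect of genotype differed between podocyte-like and endothelial-like cells by −0.87 on the log2 scale in the interaction test of edgeR (SE 0.18, adjusted p 0.0190). The difference no longer passed without WT replicate 2, WT replicate 3 or KO replicate 1 (adjusted p up to 0.0998), nor without the libraries with *Xist*. The kinds of endothelial-like cells were also mixed differently in WT and KO. In peritubular endothelial-like cells alone, all 3 KO libraries were above all 3 WT libraries (log2 fold change 1.12, SE 0.36, adjusted p 0.284 in edgeR) on 103 UMIs. This is the opposite of podocyte-like cells, and the difference between these 2 classes was not tested. The share of all genes without overlap in peritubular endothelial-like cells is not given here.

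Barcodes outside the cells held UMIs of the 9 genes. In the barcodes of at most 100 UMIs there were 42287 of them, with *Nphs1* at 56.2 to 169 CPM and *Synpo* at 34.1 to 106 CPM per library. In the barcodes above the mitochondrial limit there were 53045, of which 28072 were of *Actn4* and 13316 of *Cd2ap*.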

How the results depend on the processing

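The decrease of *Synpo* in podocyte-like cells passed in 21 of 22 alternatives (log2 fold change −0.80 to −0.60), and leaving out single libraries gave −0.72 to −0.64. Without the libraries with *Xist* it was −0.62 and 0 members passed. That setting tests 2 libraries against 2. Genes that passed in podocyte-like cells numbered 203, 772 with no filter on low counts, 62 without the libraries with *Xist* and 61 to 177 with 1 library left out (78, 61 and 91 without WT replicates 1, 2 and 3, 85 without KO replicate 1). DESeq2 factors gave 204 and the DESeq2 test 263. The replicate block gave 552. The labels do not say whether the replicate numbers pair mice, and this was not tested. Correlations of deviations were 0.072, −0.173 and 0.134 for WT and KO libraries of the same number, and −0.281 to 0.209 for unlike numbers. With the block *Synpo* was at −0.68 in podocyte-like cells and passed over all cells (adjusted p 0.0309 in edgeR). With classes from marker scores, 4 members passed in DCT-like cells, all higher in KO (*Nphs1*, *Podxl*, *Ptpro* and *Wt1*, log2 fold changes 1.75 to 2.78), against 0 otherwise, and the cause was not tested. The share of all genes that passed in that setting is not given here. The *Synpo* difference between podocyte-like and endothelial-like cells was −0.72 without the libraries with *Xist*, −1.03 against glomerular endothelial-like and −0.13 against mesangial and mural-like cells (both chosen after seeing the data), all short of the threshold. With 1 library left out it was −1.03 to −0.79 (adjusted p 0.0111 to 0.0998 in edgeR), and did not pass without WT replicate 2, WT replicate 3 or KO replicate 1. Changes of sign were limited to genes near 0: *Kirrel* −0.13 and *Magi2* 0.00105 without the libraries with *Xist*, *Wt1* 0.000686 with a mitochondrial limit of 30%, 0.0176 with no doublet removal and 0.0115 with equal cells. With 1 library left out *Kirrel* ran from −0.0606 to 0.208, *Magi2* from −0.133 to 0.0757 and *Wt1* from −0.0436 to 0.0583. The podocyte-like share stayed short of the threshold in all 16 alternatives. Doublet removal of 6% in every library was the setting used and gave no separate value. At low levels depth sets the limit, since most members could not be tested in most classes.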
